A study of Mus musculus with 4 samples.

Results

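The IL-1 family was followed through 7 genes, the rows of the deposited gene tables named Il1a, Il1b, Il1rn, Il1r1, Il1r2, Il18 and Il18r1, out of 31054 features, of which 23682 had at least 1 UMI (unique molecular identifier, standing for 1 captured transcript) in the cells kept. The single-cell transcriptomes came from the stromal vascular fraction (SVF), which is fat tissue without its adipocytes, of gonadal white adipose tissue (gWAT) of 18-month-old male p16-CreERT2/R26-LSL-tdTomato mice. All mice carried both alleles and all received tamoxifen. In these mice tamoxifen activates a Cre recombinase made from the p16 (Cdkn2a) promoter, and the recombinase switches on the red fluorescent protein tdTomato permanently, so that Tom+ marks cells in which that promoter was active around the injections. Sorting used tdTomato and the leukocyte surface protein CD45 and gave the groups CD45- Tom+ and CD45- Tom-, followed by CD45+ Tom+ and lastly CD45+ Tom-. Values below follow this order unless libraries are named. Each group was 1 library, so no difference has a replicate check, no p-value is given, and each comparison sets 1 library against another. How many mice were combined in a library is not given in the sources used here.

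IL-1 alpha and IL-1 beta are inflammatory cytokines that act through the receptor IL-1R1 together with an accessory protein, and signal through MyD88 and IRAK kinases to NF-kappaB. The antagonist IL-1Ra, the product of Il1rn, occupies IL-1R1 without signalling, and IL-1R2 is a decoy receptor that binds IL-1 without passing on a signal. IL-1 beta and IL-18 are made as inactive precursors that caspase-1 cleaves inside inflammasomes. IL-18 acts through its own receptor, of which IL-18R1 is the ligand-binding chain, on T cells and NK cells. In fat, IL-1 beta from macrophages is known for blunting adipocyte differentiation and insulin action.

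The ligand genes Il1a and Il1b are neighbours on the minus strand of mouse chromosome 2, and their promoters are shown because both genes had their highest level in the same cell class, described further on. On mm10 with GENCODE vM21, Il1a (ENSMUSG00000027399) spans chromosome 2, 129299610 to 129309972, and Il1b (ENSMUSG00000027398) spans chromosome 2, 129364570 to 129371139. Il1b overlaps the antisense gene Il1bos on the plus strand, and Il1a overlaps the plus-strand gene Gm14023. Il1bos had 18.1 CPM in neutrophil-like cells, and whether strand was used in counting is not given in the sources used here. The 250 bases before the RefSeq start of each gene follow, from GRCm38.p6, the assembly that mm10 corresponds to, at chr2:129309973-129310222 for Il1a and chr2:129371140-129371389 for Il1b, both written 5′ to 3′ on the minus strand with motif matches in capitals.
Il1a: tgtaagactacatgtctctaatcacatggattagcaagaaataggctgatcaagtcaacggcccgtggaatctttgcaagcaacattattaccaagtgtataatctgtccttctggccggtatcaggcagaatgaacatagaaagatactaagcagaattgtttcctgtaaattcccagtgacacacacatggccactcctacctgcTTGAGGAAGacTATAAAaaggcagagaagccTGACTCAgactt
Il1b: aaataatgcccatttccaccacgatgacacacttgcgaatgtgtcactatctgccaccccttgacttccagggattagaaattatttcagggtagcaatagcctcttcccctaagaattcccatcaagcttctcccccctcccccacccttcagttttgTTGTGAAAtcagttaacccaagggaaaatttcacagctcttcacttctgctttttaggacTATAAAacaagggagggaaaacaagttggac
The motifs searched on both strands were a TATA box (TATAAA), AP-1 (TGANTCA), C/EBP (TTNNGNAA) and an ETS core (GAGGAAG). The Il1a window held a TATA box 32 bases before the start, an AP-1 match 12 bases before it, and a C/EBP and an ETS match 43 and 41 bases before it, which overlap. The Il1b window held a TATA box 31 bases and a C/EBP match 91 bases before the start. Of all 32851 promoter windows of this length, 12.4% held the TATA box letters, 6.75% the AP-1, 36.8% the C/EBP and 10.6% the ETS letters, so these matches describe the sequence and mark no factor's binding.

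The other members lie in a receptor cluster on chromosome 1 and at 2 further loci. Il1r2 (ENSMUSG00000026073) spans chromosome 1, 40074079 to 40125231, Il1r1 (ENSMUSG00000026072) chromosome 1, 40225080 to 40317257, and Il18r1 (ENSMUSG00000026070) chromosome 1, 40465552 to 40500854, all on the plus strand. Il1rn (ENSMUSG00000026981) spans chromosome 2, 24336853 to 24351494, on the plus strand. Il18 (ENSMUSG00000039217) spans chromosome 9, 50554827 to 50581840, on the plus strand and overlaps Bco2 and Tex12 on the minus strand.

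The libraries held 64083756 to 139397501 UMIs in 3429 to 11255 barcodes. After filters on genes and mitochondrial UMIs and removal of marked doublets, 3886, 3674, 1927 and 4391 cells remained, 13878 in all, with medians of 18331 to 19516 UMIs per cell. tdTomato, the sorted reporter, reached 713, 15.8, 714 and 18.7 CPM (the UMIs of a gene summed over the cells named, scaled to counts per 1000000 of all their UMIs) and followed the Tom labels. Cdkn2a itself reached 6.78, 7.10, 7.30 and 7.57 CPM, so its level over all kept cells did not follow them. A Cdkn2a UMI was found in 8.72%, 6.42%, 8.93% and 5.90% of cells, a higher share in both libraries labelled Tom+. The mix of cell types differed between the libraries, and Cdkn2a is not given by cell type here. Ratios of Tom+ over Tom- are therefore read as comparing the reporter labels and not levels of Cdkn2a. Ptprc, which encodes CD45, reached 217, 157, 223 and 188 CPM, so the CD45 labels did not separate cells with and without it, and the words "library labelled" are kept for that reason. Barcodes were also shared between libraries. Both libraries labelled Tom- had 4394 barcodes in common in the files and the other pairs 26 to 1134, but of the kept cells only 80 of 13878 had a barcode kept in another library too. A barcode of a kept cell had more UMIs in another library for 97 of 13878 cells, 0 of the 253 neutrophil-like, 7 of the 2451 macrophage-like and 14 of the 3617 APC-like cells. The levels given below all include these cells.

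Cells were grouped into 30 clusters without the IL-1 genes described here, and 21 clusters were named from marker genes into 14 classes, whose names end in -like because no protein was measured. A class level is given for classes of at least 50 cells, and a level in 1 library where that library held at least 50 cells of the class. The interval after each CPM is an exact Poisson 95% interval, that after a share of cells is an exact binomial (Clopper-Pearson) 95% interval, and all intervals cover counting error only. A share of cells with a UMI is also given with every cell thinned to 2000 UMIs, which left out 60 shallower cells, beside its share in B cell-like cells (median 5841.5 UMIs per cell) or, for Il18, T cell-like cells (median 5924 UMIs), which are taken as background for RNA released by other cells.

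**Figure D1:**
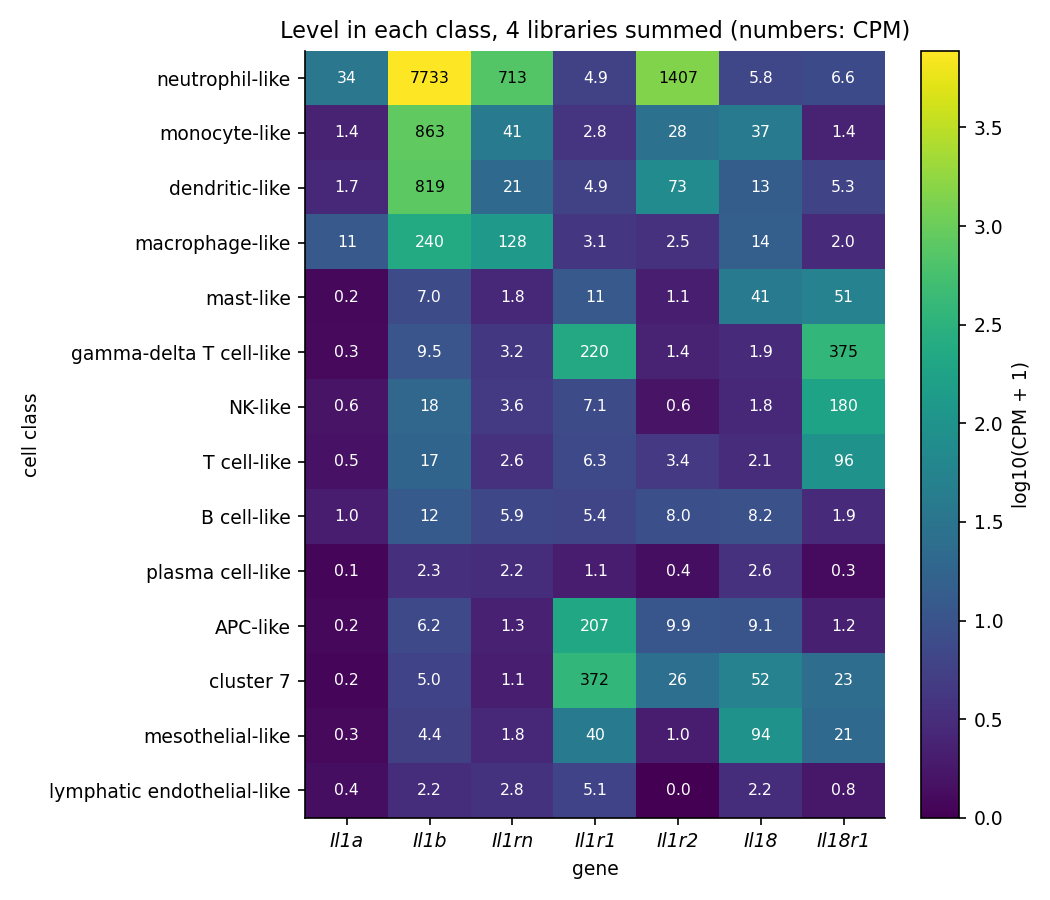
Level of each IL-1 family gene (columns) in 14 cell classes and clusters (rows), with the 4 libraries summed. Numbers are CPM and the colour is log10(CPM + 1). Il1a, Il1b, Il1rn and Il1r2 are highest in neutrophil-like cells, Il1r1 in cluster 7, Il18 in mesothelial-like cells and Il18r1 in gamma-delta T cell-like cells.

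Neutrophil-like cells had the highest Il1b level of any class, and the myeloid classes were the sources of nearly all Il1b transcripts. Over all libraries Il1b reached 7733 CPM (7577 to 7891) in the 253 neutrophil-like cells, 863 CPM (815 to 912) in monocyte-like cells, 819 CPM (794 to 846) in dendritic-like cells and 240 CPM (236 to 244) in macrophage-like cells. The monocyte-like and dendritic-like intervals overlap, so those neighbours in the order were not told apart, whereas the neutrophil-like and the macrophage-like level stood outside the intervals next to them. Neutrophil-like cells were identified by all 6 of 6 neutrophil markers, among them S100a8 at 33319 CPM. They were shallow, with a median of 4014 UMIs per cell, 0.208 of the median of their own library.

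In neutrophil-like cells Il1b was found in 100% of cells (98.6 to 100) and in 98.4% after thinning, against 7.38% and 2.59% of B cell-like cells. The library labelled CD45- Tom- gave 6697 CPM (6462 to 6938) in 86 neutrophil-like cells and that labelled CD45+ Tom- 8711 CPM (8464 to 8963) in 123. The libraries labelled Tom+ held few such cells, 21 with 649 Il1b UMIs in the CD45- Tom+ and 23 with 939 in the CD45+ Tom+ library. Transcripts were spread over the class, since the median neutrophil-like cell had 31 Il1b UMIs, the highest 161, and the top 10% of cells 25.2% of the class's Il1b UMIs.

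By number of transcripts rather than level, macrophage-like cells were the largest single holder. Of all Il1b UMIs in kept cells, 43.1% lay in the 2451 macrophage-like cells, 31.8% in the 253 neutrophil-like cells, 13.0% in the 235 dendritic-like cells and 4.18% in the 124 monocyte-like cells. Macrophage-like and neutrophil-like cells made up 17.7% and 1.82% of kept cells. With both filters loosened, to at least 500 genes and under 20% mitochondrial UMIs, 349 cells were neutrophil-like at 6704 CPM and held 28.7%, macrophage-like cells 30.6% and dendritic-like cells 15.6%. The sort and the filters on barcodes can set such shares.

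**Figure D2:**
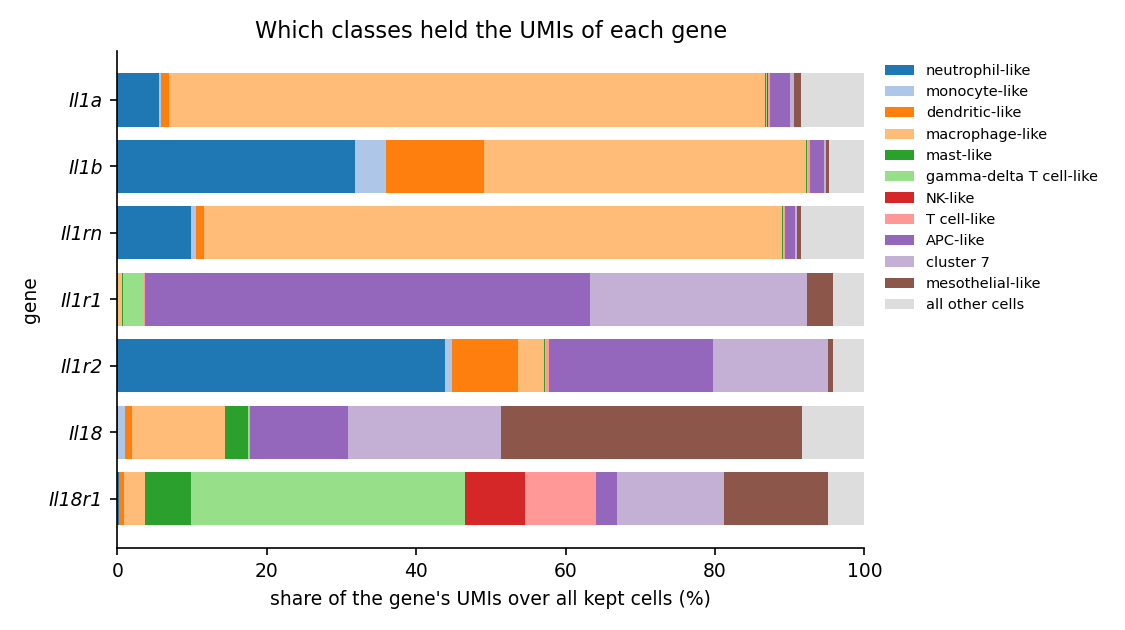
Share of each gene's UMIs over all kept cells (x axis, %) held by each cell class, 1 bar per gene, coloured by class with all remaining cells in grey. Macrophage-like cells hold 79.7% of Il1a, 43.1% of Il1b and 77.3% of Il1rn UMIs, and APC-like cells hold 59.6% of Il1r1 UMIs.

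Stromal cells carried little Il1b. It reached 6.18 CPM (5.67 to 6.73) in APC-like cells, which are named after adipocyte progenitor cells and were identified by genes such as Pdgfra and Dcn, and 11.6 CPM (9.02 to 14.8) in B cell-like cells. After thinning, 1.25% of APC-like and 2.59% of B cell-like cells had a UMI, so Il1b in APC-like cells was at or below background. Mesothelial-like cells gave 4.41 CPM and cluster 7 4.96 CPM. Il1b in APC-like cells was 8.85, 6.88, 1.86 and 5.50 CPM over the libraries, and the library labelled CD45+ Tom+ had 5 UMIs in 106 cells.

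Macrophage-like cells were not uniform in Il1b. They formed cluster 2, led by Car6, Arg1 and Olr1, cluster 4, led by Atp6v0d2, Ms4a7 and Gpnmb, and cluster 12, led by Fcna, Vsig4 and Marco, and each of them had all 8 of 8 macrophage markers raised. These leading genes were chosen after their values were seen. Il1b was 551 CPM (541 to 561) in cluster 2, 42.7 CPM (40.2 to 45.4) in cluster 4 and 57.6 CPM (52.5 to 63.0) in cluster 12. Within cluster 2 the signal was concentrated, since the top 10% of cells held 69.0% of the cluster's Il1b UMIs and 50.5% of cells had any. In cluster 4 the top 10% of cells held 89.5%.

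The whole macrophage-like class had a lower Il1b level in the libraries labelled Tom+ than in those labelled Tom-. The levels were 124 CPM (119 to 129) in the CD45- Tom+, 331 CPM (320 to 341) in the CD45- Tom-, 131 CPM (124 to 139) in the CD45+ Tom+ and 378 CPM (368 to 388) in the CD45+ Tom- library. Both Tom+ values lay below both Tom- values. The log2 ratio of Tom+ over Tom- was -1.41 (-1.49 to -1.34) for the CD45- libraries and -1.53 (-1.62 to -1.44) for the CD45+ ones, with exact intervals conditional on the sum of both counts. The share of macrophage-like cells with a UMI was 26.0%, 43.1%, 20.96% and 43.7%, and 10.8%, 21.3%, 10.9% and 23.0% after thinning, so both Tom+ shares lay below both Tom- shares with depth made equal as well. Among genes whose mean reached 5 CPM in such a comparison, 2.16% were past 2-fold in either direction in the pair labelled CD45- and 2.58% in the pair labelled CD45+. Of the IL-1 genes, 4 were compared in each pair, and Il1b was the 1 past 2-fold in both.

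The mix of macrophage clusters differed between the same libraries. Cluster 2, the cluster high in Il1b, made up 25.6%, 62.7%, 26.5% and 60.0% of macrophage-like cells in the order of libraries, and cluster 4 made up 48.0%, 27.4%, 43.9% and 28.2%. With both libraries of a pair set to the same mix of the class's clusters, an alternative added after seeing the data, the Il1b ratio was -0.41 in the pair labelled CD45- and -0.47 in the pair labelled CD45+, so the direction stayed and the size was under 2-fold.

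Within cluster 2, Il1b was 448 CPM (428 to 469), 520 (502 to 538), 480 (450 to 513) and 642 (624 to 659), and the log2 ratios were -0.21 (-0.30 to -0.13) and -0.42 (-0.52 to -0.32). These are small beside the ratios of the whole class, and the CD45- Tom- and CD45+ Tom+ intervals overlap. Within cluster 4 the level was 21.6 CPM (18.9 to 24.6), 82.9 (74.0 to 92.5), 24.5 (20.3 to 29.4) and 71.7 (64.7 to 79.3), and the log2 ratios were -1.94 (-2.19 to -1.69) and -1.55 (-1.86 to -1.25). Few cells set the cluster 4 level. Cells with 10 or more Il1b UMIs numbered 5, 6, 3 and 12 in it and held 37.6%, 73.3%, 49.6% and 71.1% of its Il1b UMIs. After thinning, 3.02%, 7.69%, 4.60% and 11.3% of cluster 4 cells had a UMI. In cluster 12 the levels were 59.7, 82.1, 57.0 and 36.9 CPM, with no common direction between the pairs.

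For these clusters the members past 2-fold were 0 of 4 in cluster 2 in either pair, where 1.96% and 3.04% of genes were past it in the pairs labelled CD45- and CD45+, and 1 of 3, Il1b, in cluster 4 in both pairs, where 1.52% and 2.11% were. S100a8, 1 of the neutrophil markers, was given beside them because neutrophil-like cells hold so much Il1b. It reached 80.9, 59.7, 53.0 and 64.6 CPM in cluster 2 and 13.6, 15.8, 12.4 and 10.1 CPM in cluster 4 over the libraries. S100a8 cannot stand for RNA from monocyte-like or dendritic-like cells, which also had Il1b. The part of free or doublet RNA in the cluster 2 and cluster 4 levels was not tested.

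**Figure D3:**
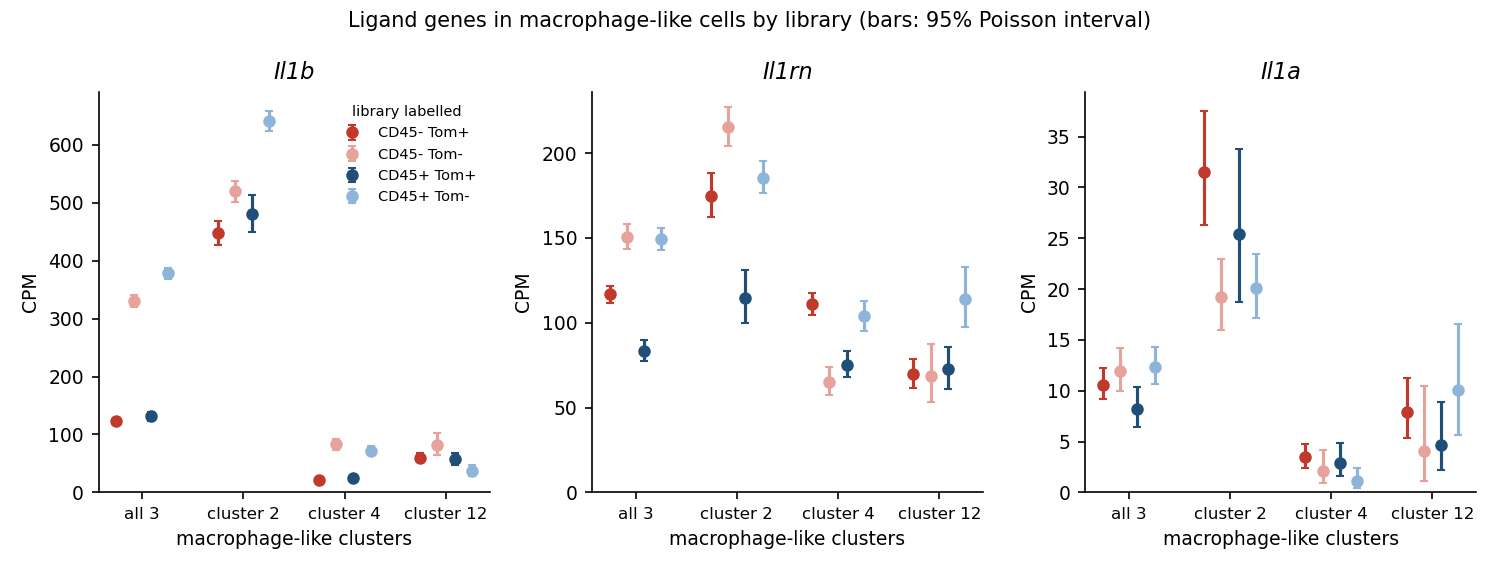
Level in CPM (y axis) of Il1b, Il1rn and Il1a in all 3 macrophage-like clusters together and in each cluster (x axis), 1 point per library with its 95% Poisson interval. Il1b in the whole class is 124 and 131 CPM in the libraries labelled Tom+ and 331 and 378 CPM in those labelled Tom-, while the 4 points of cluster 2 lie between 448 and 642 CPM.

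Il1rn, the receptor antagonist gene, was found in the same classes as Il1b. It reached 713 CPM (666 to 762) in neutrophil-like cells, 128 CPM (124 to 131) in macrophage-like cells and 40.7 CPM (30.9 to 52.6) in monocyte-like cells, each outside the interval of the class before it, and 5.91 CPM (4.09 to 8.26) in B cell-like cells. Macrophage-like cells held 77.3% of its UMIs. In them it was present in 49.6% of cells and in 14.98% after thinning, against 1.04% of thinned B cell-like cells. Cluster 2 had 186 CPM (180 to 192), cluster 4 95.3 CPM (91.4 to 99.2) and cluster 12 78.4 CPM (72.4 to 84.7), a narrower spread between clusters than that of Il1b.

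Over the libraries macrophage-like cells had 117 CPM (112 to 122), 151 (144 to 158), 83.2 (77.3 to 89.6) and 149 (143 to 156) of Il1rn. The log2 ratios were -0.37 (-0.46 to -0.28) for the CD45- libraries and -0.84 (-0.97 to -0.72) for the CD45+ ones, both within 2-fold. The ratio in the pair labelled CD45+ was past 2-fold under some alternatives, at -1.14 with Leiden resolution 0.5 and -1.20 with cells thinned to 2000 UMIs. With the cluster mix made equal the first turned to 0.10 and the second was -0.61. In cluster 2 the levels were 175, 215, 115 and 186 CPM, with log2 ratios of -0.30 (-0.43 to -0.17) and -0.70 (-0.91 to -0.49). In cluster 4 the pairs went opposite ways, with 111 CPM (105 to 118), 65.2 (57.4 to 73.9), 75.3 (67.7 to 83.4) and 104 (95.3 to 113) and log2 ratios of 0.77 (0.57 to 0.97) and -0.46 (-0.66 to -0.27). Il1rn in cluster 4 thus had no direction shared by the pairs. With thinned cells these ratios were 0.63 and -1.496.

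Il1a, which encodes the IL-1 that is active as a precursor and is released from damaged cells, was a rare transcript here. Its 41 UMIs in neutrophil-like cells gave 33.8 CPM (24.3 to 45.9), and macrophage-like cells had 11.0 CPM (10.1 to 11.9) and 79.7% of its UMIs. Next came cluster 20, an unnamed cluster, at 3.48 CPM, and B cell-like cells had 1.04 CPM. Within macrophage-like cells cluster 2 had 22.6 CPM (20.6 to 24.8), cluster 12 7.09 CPM (5.38 to 9.16) and cluster 4 2.62 CPM (2.02 to 3.34), so cluster 2 was the highest for all of Il1a, Il1b and Il1rn. Thinned shares were 2.84% in cluster 2 and 0.78% in cluster 4, which is close to the level of 1 UMI and orders nothing.

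Over the libraries macrophage-like cells had 10.6 CPM (9.16 to 12.2), 12.0 (10.0 to 14.2), 8.21 (6.41 to 10.4) and 12.3 (10.6 to 14.3) of Il1a, with log2 ratios of -0.18 (-0.50 to 0.15) and -0.59 (-1.004 to -0.19). With the cluster mix made equal the signs turned, to 0.74 and 0.28, and at Leiden resolution 0.5 the ratio in the pair labelled CD45+ was -1.08. Within cluster 2 the levels were 31.6 CPM (26.3 to 37.5), 19.2 (15.9 to 23.0), 25.5 (18.8 to 33.8) and 20.1 (17.2 to 23.5), and the ratios 0.72 (0.35 to 1.09) and 0.34 (-0.16 to 0.81). Within cluster 2, Il1a was therefore the higher of the pair in the libraries labelled Tom+, while Il1b and Il1rn were the lower. The Il1a interval of the CD45+ libraries holds 0. For the CD45- libraries the Il1a ratio fell to 0.14 with cells thinned to 2000 UMIs. With each cell weighing the same it was 0.32, and both values lie below its interval. The CD45+ libraries gave 0.55 and 0.39 under these alternatives. The top 10% of cluster 2 cells held 78.3% of its Il1a UMIs. The direction of Il1a was thus kept, but its size in the CD45- libraries depended on how cells were weighted.

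**Figure D4:**
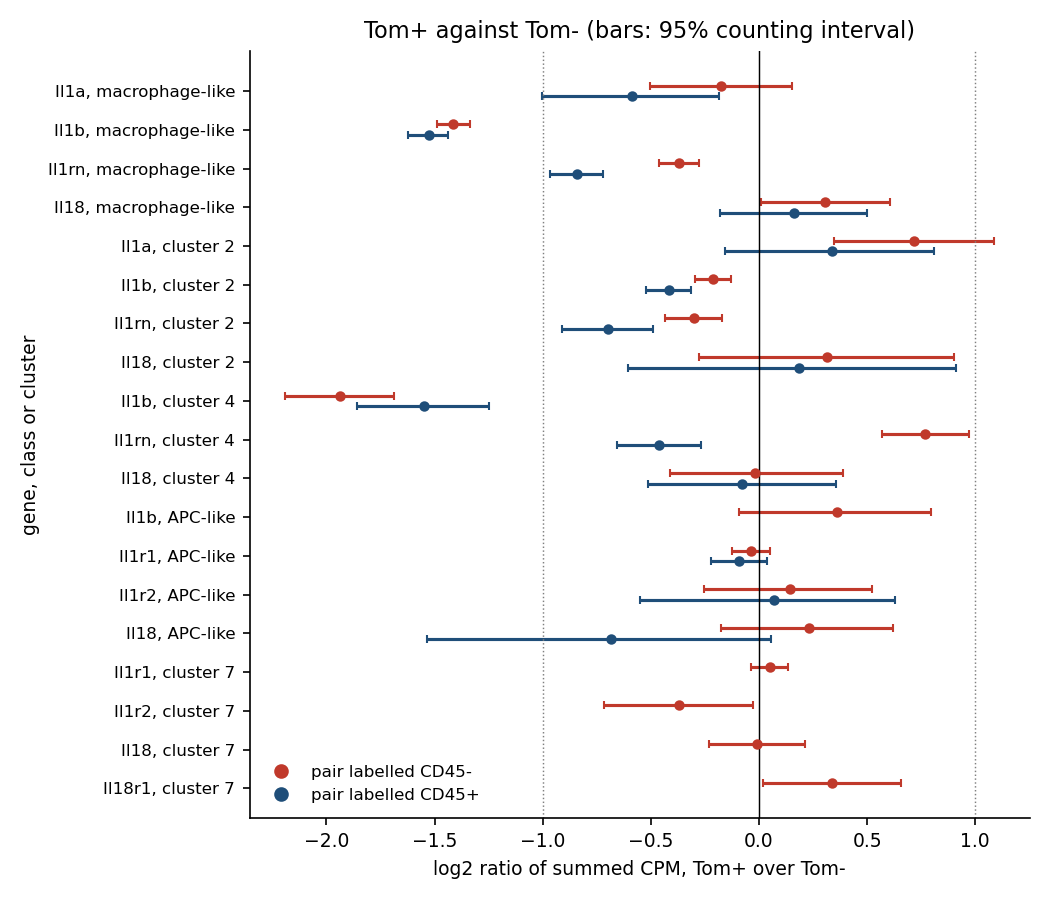
Log2 ratio of summed CPM, Tom+ over Tom- (x axis), with its 95% counting interval, for each IL-1 family gene whose mean reached 5 CPM in the class or cluster named (y axis), in red for the pair labelled CD45- and blue for the pair labelled CD45+. Dotted lines mark 2-fold. Il1b in macrophage-like cells (-1.41 and -1.53) and in cluster 4 (-1.94 and -1.55) lies past 2-fold, and Il1r1 in APC-like cells (-0.04 and -0.09) lies next to 0.

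Il1r1, the signalling receptor for IL-1, was a stromal gene in this tissue with a second site in gamma-delta T cell-like cells. It reached 372 CPM (364 to 380) in cluster 7, 220 CPM (205 to 236) in gamma-delta T cell-like cells, 207 CPM (204 to 210) in APC-like cells and 40.2 CPM (37.7 to 42.7) in mesothelial-like cells, against 5.39 CPM (3.66 to 7.65) in B cell-like cells. The gamma-delta T cell-like and APC-like intervals overlap, so these classes were not told apart. Cluster 7, led by Cxcl13 and Clca3a2, had 6 of 6 mesothelial and 6 of 8 APC markers raised and kept its number for that reason. The myeloid sources of Il1b had Il1r1 at 4.95 CPM in neutrophil-like, 3.06 CPM in macrophage-like and 2.80 CPM in monocyte-like cells, no higher than in B cell-like cells.

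A UMI of Il1r1 was found in 85.5% of APC-like cells (84.3 to 86.6), which had a median depth of 22433 UMIs, and in 4.02% of B cell-like cells. After thinning the shares were 29.9% and 1.56%. Cluster 7 gave 42.0% and gamma-delta T cell-like cells 35.8% after thinning. APC-like cells held 59.6% of the Il1r1 UMIs and cluster 7 29.1%. Receiver and source cells of IL-1 were thus different classes at the level of transcripts.

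Among APC-like clusters the level of Il1r1 ran over a range. Cluster 10, led by Ereg and Cpxm2 among named genes, had 303 CPM (295 to 312), cluster 3, led by Fgf10 and Enpp6, 258 CPM (252 to 264), and cluster 0, led by Inmt and Mmp11, 155 CPM (151 to 160). Cluster 21, led by Thbs4 and Cthrc1, had 148 CPM (140 to 157), which overlaps cluster 0. Cluster 14, led by Adamts16, Efhd1 and Pi16, had the lowest level at 88.9 CPM (82.2 to 96.1). Cluster 14 was the only APC-like cluster of these in which Dpp4, a marker of early progenitors, was raised. These leading genes were chosen after their values were seen.

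The level of Il1r1 in APC-like cells was close in all libraries, at 207 CPM (196 to 219) in the CD45- Tom+, 212 (207 to 217) in the CD45- Tom-, 191 (175 to 208) in the CD45+ Tom+ and 203 (199 to 208) in the CD45+ Tom- library. The intervals of the libraries of each pair overlap. The log2 ratios were -0.04 (-0.12 to 0.05) and -0.09 (-0.22 to 0.04), and neither interval reached further from 0 than -0.22. In APC-like cells 0 of 4 IL-1 genes were past 2-fold in the pair labelled CD45- and 0 of 3 in the pair labelled CD45+, where 1.75% and 1.5% of genes were. In cluster 7 the levels were 342 CPM (327 to 358), 331 (318 to 344), 350 (327 to 374) and 441 (426 to 456), with a log2 ratio for the pair labelled CD45- of 0.05 (-0.04 to 0.14). Here the CD45+ Tom- library stood above the others. In cluster 7, 0 of 4 IL-1 genes were past 2-fold against 1.67% of genes, and in cluster 0, where Il1r1 had a ratio of -0.15 (-0.33 to 0.03), 0 of 3 against 2.17%.

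Gamma-delta T cell-like cells had 224 CPM (203 to 247), 270 (223 to 325), 215 (181 to 253) and 183 (153 to 217) of Il1r1 over the libraries, with neighbouring intervals overlapping. The class was identified by Trdc, Trdv4 and 4 further markers, and 5 of 7 T cell markers were raised in it as well. So were 4 of 7 markers of type 2 innate lymphoid cells, as many as in T cell-like and NK-like cells. Gamma-delta T cell-like cells also had Il17a, the cytokine gene of IL-17-producing T cells, at 280 CPM.

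**Figure D5:**
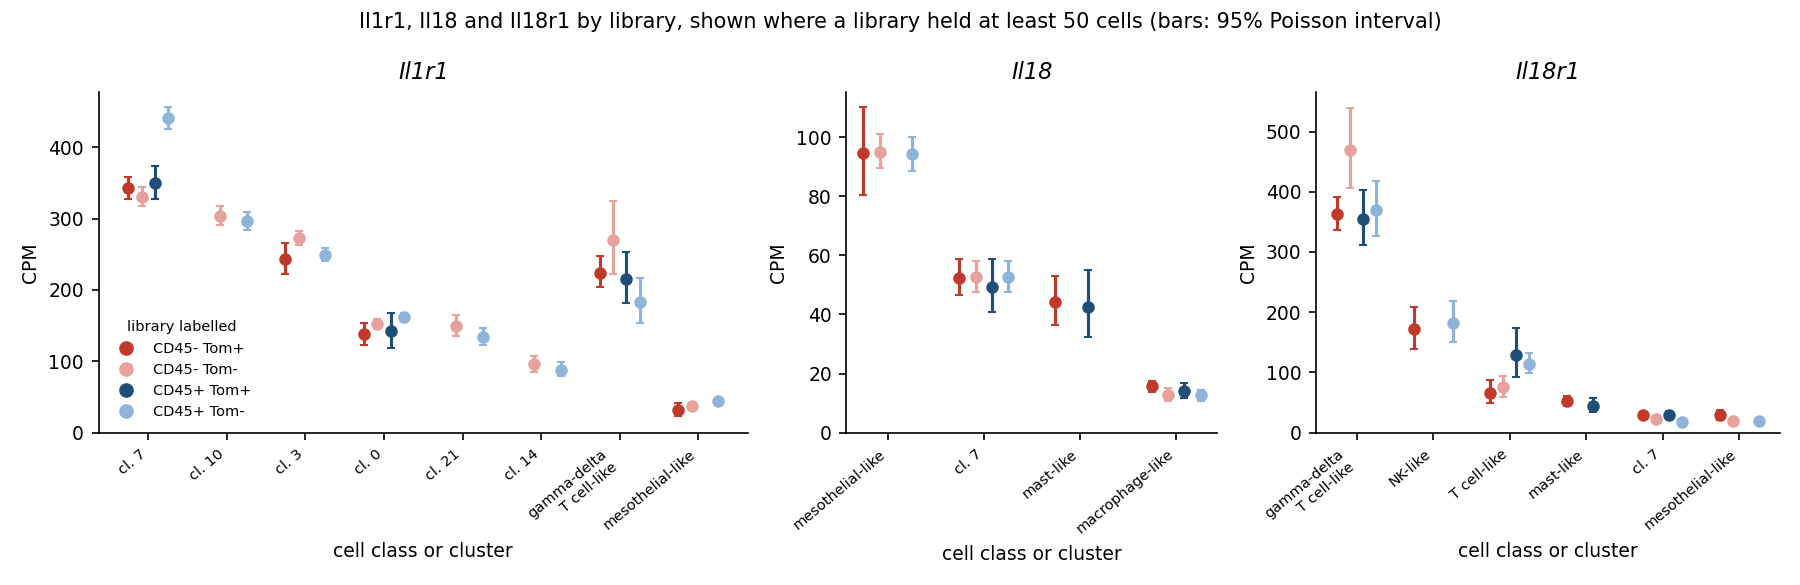
Level in CPM (y axis) of Il1r1, Il18 and Il18r1 in classes and clusters (x axis, cl. for cluster), 1 point per library with its 95% Poisson interval, shown where that library held at least 50 cells. Clusters 10, 3, 0, 21 and 14 are APC-like. Il1r1 in cluster 7 lies between 331 and 441 CPM, and Il18 in mesothelial-like cells lies between 94.2 and 95.1 CPM in the 3 libraries shown.

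Il1r2, the decoy receptor gene, was high in the class that was also highest for the ligands. It reached 1407 CPM (1341 to 1476) in neutrophil-like cells, 73.1 CPM (65.5 to 81.2) in dendritic-like cells, 28.0 CPM (20.03 to 38.2) in monocyte-like cells and 25.7 CPM (23.7 to 27.8) in cluster 7, of which the last pair overlap. Neutrophil-like cells held 43.8% of its UMIs. Among libraries labelled Tom- the CD45- one gave 1298 CPM (1195 to 1407) and the CD45+ one 1528 CPM (1426 to 1636) in neutrophil-like cells, and those labelled Tom+ had 142 UMIs each in 21 and 23 cells. The share of neutrophil-like cells with a UMI was 90.9% and 77.9% after thinning, against 4.66% and 1.95% of B cell-like cells.

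APC-like cells had 9.94 CPM (9.28 to 10.6) of Il1r2, which overlaps the 7.99 CPM (5.85 to 10.7) of B cell-like cells. After thinning 1.66% of APC-like cells had a UMI against 1.95% of B cell-like cells. APC-like cells taken as 1 class, which held 22.0% of the Il1r2 UMIs, were thus not told apart from this background class. Their clusters were not alike. The top 10% of cells held 100% of the cluster's Il1r2 UMIs in cluster 0, 54.4% in cluster 10 and 58.3% in cluster 3. Levels of Il1r2 by APC-like cluster are not given here. Il1r2 was lower in other classes, at 2.55 CPM (2.14 to 3.02) in macrophage-like and 1.02 CPM (0.668 to 1.499) in mesothelial-like cells. Cluster 7 was above APC-like cells, with 4.09% of thinned cells, and had 20.1, 26.0, 28.3 and 28.6 CPM over the libraries with a log2 ratio for the pair labelled CD45- of -0.37 (-0.72 to -0.03), or -1.18 with thinned cells.

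Il18, whose product drives interferon-gamma production by lymphocytes, had a different set of source cells. It reached 94.4 CPM (90.7 to 98.3) in mesothelial-like cells, which line the surface of the fat pad and were identified by Msln and Upk3b, 52.2 CPM (49.3 to 55.2) in cluster 7, 40.7 CPM (35.0 to 47.0) in mast-like cells and 37.1 CPM (27.8 to 48.6) in monocyte-like cells. The last pair overlap. Macrophage-like cells had 13.9 CPM (12.9 to 14.98), APC-like cells 9.11 CPM (8.49 to 9.77) and T cell-like cells 2.11 CPM (0.911 to 4.16). Mesothelial-like cells held 40.2% of the Il18 UMIs in 6.07% of the cells. A UMI was found in 85.2% of them and 15.8% after thinning, against 1.39% and 0.177% of T cell-like cells. The mesothelial-like cluster also had 7 of 8 APC markers raised.

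Mesothelial-like cells had 94.6 CPM (80.5 to 110), 95.1 (89.5 to 101) and 94.2 (88.7 to 100.0) of Il18 in the CD45- Tom+, CD45- Tom- and CD45+ Tom- libraries, and the CD45+ Tom+ library had 94 UMIs in 30 cells. Cluster 7 had 52.4, 52.7, 49.2 and 52.6 CPM, with a log2 ratio for the pair labelled CD45- of -0.01 (-0.23 to 0.21). These levels were close in every library where they could be given. Mast-like cells had 44.3 CPM (36.6 to 53.1) and 42.6 CPM (32.4 to 55.1) in the libraries labelled Tom+, while those labelled Tom- held 2 UMIs in 38 cells and 9 UMIs in 46 cells. In macrophage-like cells the levels were 15.7, 12.7, 14.1 and 12.6 CPM, with ratios of 0.30 (0.01 to 0.61) and 0.16 (-0.18 to 0.50). With thinned cells these ratios were 0.95 and 0.34.

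Il18r1, the IL-18 receptor chain, was foremost a gene of innate-like lymphocytes. It reached 375 CPM (356 to 395) in gamma-delta T cell-like cells, 180 CPM (161 to 202) in NK-like cells, 95.7 CPM (86.1 to 106) in T cell-like cells and 51.2 CPM (44.9 to 58.3) in mast-like cells, each outside the interval of the next. Cluster 7 and mesothelial-like cells followed with 23.3 CPM (21.3 to 25.3) and 20.7 CPM (18.9 to 22.5), which overlap, and B cell-like cells had 1.91 CPM (0.954 to 3.42). Thinned shares were 50.8% in gamma-delta T cell-like, 29.1% in NK-like and 12.5% in T cell-like cells against 0.519% in B cell-like cells.

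Over the libraries gamma-delta T cell-like cells had 363 CPM (336 to 391), 469 (406 to 539), 355 (311 to 403) and 370 (327 to 417) of Il18r1. The CD45- Tom- library, with 57 such cells, lay above both libraries labelled Tom+, and its interval overlaps that of the CD45+ Tom- library. T cell-like cells had 66.1 CPM (48.9 to 87.4), 75.9 (60.0 to 94.7), 128 (92.9 to 173) and 114 (98.7 to 132), and the ratio in the pair labelled CD45- was -0.20 (-0.74 to 0.34). In T cell-like cells 0 of 2 IL-1 genes were past 2-fold in that pair against 12.3% of genes. In cluster 7 the levels were 28.9, 22.8, 29.1 and 17.7 CPM and the ratio 0.34 (0.02 to 0.66) in the pair labelled CD45-.

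B cell-like cells, the background class, were compared in the pair labelled CD45- as well. Of 4 IL-1 genes there, Il1b was lower with 7 against 31 UMIs and a log2 ratio of -2.38 (-3.81 to -1.17), and Il18 was higher with 19 against 8 UMIs and a log2 ratio of 1.014 (-0.24 to 2.42), where 7.93% of genes were past 2-fold. Neither kept that size under every alternative, since the Il1b ratio was -0.78 with doublets kept and -0.74 with the looser filters on barcodes, and the Il18 ratio 0.08 with thinned cells. A class that is not a source had an Il1b ratio in the same direction as macrophage-like cells in this pair. Il1b reached the mean of 5 CPM needed for a ratio there only through the library labelled Tom-. Its direction in B cell-like cells was therefore partly set by that filter. S100a8 was 5.99 CPM and 26.1 CPM in the same B cell-like cells. Il1b was 4.19 CPM and 21.8 CPM in these B cell-like cells and 124 CPM and 331 CPM in macrophage-like cells of the same libraries. The cluster 4 levels given above were lower than those of the whole macrophage-like class. The part of free RNA in the ratios of macrophage-like cells and their clusters was not tested.

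Transcripts of several members were found in the same cells. In neutrophil-like cells 68.4% had both Il1b and Il1rn and 90.9% both Il1b and Il1r2, and after thinning 54.2% and 77.1%, so most neutrophil-like cells carried the ligand with its antagonist or decoy. Every neutrophil-like cell had an Il1b UMI before thinning, so the unthinned shares are simply those of Il1rn and Il1r2. In cluster 2, 27.3% of cells had both Il1b and Il1rn, 23.3% Il1b alone and 28.3% Il1rn alone, and in cluster 4 the shares were 10.0%, 11.2% and 37.5%. After thinning 4.30% of cluster 2 and 0.445% of cluster 4 cells had both. Among gamma-delta T cell-like cells 58.0% had both Il1r1 and Il18r1, 7.8% Il1r1 alone and 27.0% Il18r1 alone, and 17.6% had both after thinning. Mesothelial-like cells had both Il18 and Il18r1 in 24.8% of cells and mast-like cells in 7.31%, which thinning lowered to 0.959% and 1.14%. Such shares depend on depth and on doublets that were not marked, and are descriptions.

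The other genes of the pathway were taken as lists of 7 further ligands, 6 further receptors and inhibitors, 13 genes of processing and release, 15 of signalling, 15 targets in stroma and 3 targets of IL-18. Of the further ligands, Il1f9, the older symbol of Il36g, reached 652 CPM in neutrophil-like cells and at most 1.37 CPM in any other class, and Il33, an alarmin of stromal cells, 119 CPM in cluster 7 and 107 CPM in APC-like cells. Il1f9 was among the 10 leading genes of the neutrophil-like cluster and was available to the clustering. Of the receptors, Il1rl1, which encodes the IL-33 receptor, reached 2436 CPM in mast-like cells, and Il1rap, the accessory chain that IL-1R1 needs, 325 CPM in neutrophil-like cells, 29.2 CPM in cluster 7 and 18.9 CPM in monocyte-like cells. Il18rap, the accessory chain of the IL-18 receptor, was highest in NK-like cells at 199 CPM and neutrophil-like cells at 168 CPM, and Il18bp, a soluble inhibitor of IL-18, in mesothelial-like cells at 52.5 CPM.

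The inflammasome sensor gene Nlrp3 was, like Il1b, highest in neutrophil-like cells among the myeloid classes, with 481 CPM in neutrophil-like, 101 CPM in monocyte-like, 62.9 CPM in dendritic-like and 49.8 CPM in macrophage-like cells. Casp1, which cleaves both IL-1 beta and IL-18, had 35.7 CPM in macrophage-like and 28.7 CPM in monocyte-like cells. Ninj1, needed for membrane rupture, was highest in neutrophil-like cells at 560 CPM, Pycard, the inflammasome adaptor, in macrophage-like cells at 234 CPM, and P2rx7, an ATP-gated channel, in mast-like cells at 152 CPM. Of the signalling genes, the NF-kappaB inhibitor Nfkbia was highest in neutrophil-like cells at 2616 CPM, and Nfkbiz, Tnfaip3 and Nfkb1 were highest in mast-like cells at 2068, 1373 and 787 CPM. Among targets, the chemokine gene Cxcl2 reached 14528 CPM in neutrophil-like cells, the acute-phase gene Saa3 8308 CPM in cluster 7, and the monocyte-attracting chemokine genes Ccl7 and Ccl2 7347 and 6911 CPM in mast-like cells. Of the IL-18 targets, Ifng was highest in NK-like cells at 175 CPM, and Il13 and Csf2 in mast-like cells at 269 and 25.1 CPM.

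In APC-like cells none of the listed genes that could be compared was past 2-fold in either pair. These were 0 of 41 list entries in the pair labelled CD45- and 0 of 40 in the pair labelled CD45+. Nfkbia was entered under both signalling and targets. Of all genes compared 1.75% and 1.5% were past 2-fold, so the counts set the lists apart in no way. The 14 stromal target genes compared had median log2 ratios of -0.13 and -0.39, beside medians of -0.03 and -0.05 over all genes compared in APC-like cells. In macrophage-like cells 4 of 9 such targets were past 2-fold in both pairs and in the same direction, where 2.16% and 2.58% of all genes compared were past it in each pair. Ccl2 was higher, at 296 against 137 CPM and 348 against 128 CPM, as was Ccl7, at 159 against 64.3 CPM and 242 against 63.5 CPM. Il6 was lower, at 12.3 against 26.3 CPM and 14.6 against 30.2 CPM, as was Has1, a hyaluronan synthase gene, at 1.91 against 8.80 CPM and 1.27 against 9.74 CPM. Has1 reached the mean of 5 CPM needed for a ratio only through the libraries labelled Tom-. Its place among the 4 was therefore partly set by that filter and carries no weight. The median over the 9 targets was -0.01 and 0.09 beside -0.05 and -0.07 over all genes. Of the receptors Il1rl2 was lower past 2-fold in the pair labelled CD45+ alone, and no gene of processing or signalling passed it in either pair.

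Ccl2, Ccl7 and Il6 did not keep these sizes within macrophage-like clusters. In cluster 2 the Ccl2 ratios were -0.52 and 0.43, the Ccl7 ratios 0.21 and 0.72 and the Il6 ratios 0.14 and -0.13, and in cluster 4 the Ccl2 ratios were 0.05 and -0.04. Has1 in cluster 2 had ratios of -3.21 (-5.13 to -1.77) and -2.81 (-5.12 to -1.22) on 4 and 3 UMIs in the libraries labelled Tom+. APC-like cells, the class with the highest Has1 level at 498 CPM, were far more numerous in the libraries labelled Tom-, with 265, 1530, 106 and 1716 cells. The part of RNA from APC-like cells in the Has1 and Il6 values of macrophage-like cells was not tested.

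Over the 26 clusters of at least 50 cells, with the libraries summed, the genes whose log2(CPM + 1) followed each member most closely by Pearson's r were named. They were Clec5a (0.94), Klhdc4 (0.93) and Il1rn (0.93) for Il1a, Mefv (0.96), Lilra6 (0.95) and Slc7a11 (0.95) for Il1b, and Clec4d (0.97), Tlr13 (0.97) and Cd300ld (0.97) for Il1rn. For the receptors they were Lrrn2 (0.92), Auts2 (0.92) and Mrc2 (0.91) for Il1r1 and Ifitm1 (0.86), Ptgs2os2 (0.83) and Asprv1 (0.80) for Il1r2. Il18 had lower values with Pla2g4a (0.74), Ncoa4 (0.73) and Scamp2 (0.70), and Il18r1 was followed by Rnf43 (0.89), Rab37 (0.88) and Gata3 (0.88). Il1rn was thus the 1 member among the closest genes of another. The clusters share libraries and differ in depth, so these values describe the pattern only.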

How the data were processed

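Cells of 4 libraries, 1 per group, were analysed. The authors processed the reads with Cell Ranger 3.0.2 against mm10, per the submitters' processing notes, and deposited 1 matrix per library of raw UMI counts, whole numbers that were not normalized. As in the study's methods, kept barcodes had more than 1000 and fewer than 7000 genes detected, and less than 8% of their UMIs from mitochondrial genes. Doublets were scored with Scrublet in scanpy 1.11.5, and the highest-scoring 0.8% of cells per 1000 barcodes, 259, 364, 54 and 427 cells, were left out.

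Cells were clustered on 30 principal components of 2000 variable genes, with 15 neighbours and Leiden resolution 1 (leidenalg 0.10.2, igraph 0.11.9), without the IL-1 family genes, the pathway lists and tdTomato. Il1f6, Il1f8, Il1f9 and Il1f5 were matched afterwards through RefSeq synonyms of the Il36 genes, and Il1f9 had been left available to the clustering. Markers were called raised in clusters where they had 20 CPM and 4 times their median cluster level. With at least 3 markers raised a cluster took a class name. It stayed unnamed where an unrelated class had 75% of the named class's share raised or led its 10 top genes. Between mesothelial and APC, the 75% rule was waived where the cluster's own markers among the top genes outnumbered the other's by more than 1. A cluster also stayed unnamed where its median depth was under 1/3 of its library's median and no own marker was among the top genes. These thresholds were set after the data were seen.

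Counts were summed per class and library and scaled to CPM, with exact Poisson, Clopper-Pearson and conditional exact 95% intervals. A ratio needed at least 100 cells in both libraries and a mean of 5 CPM. The depth of the 4 libraries, 64083756 to 139397501 UMIs, limits rare genes, and a count of 0 allows up to 3 counts. No count model was fitted, since 1 library per group leaves no replicate spread. On simulated data for macrophage-like cells of the pair labelled CD45-, with 200 of 8876 genes changed, 100% of changes were recovered and 95.4% of intervals held the true ratio. The simulated counts were Poisson, as the intervals assume, and all planted changes were past 2-fold. The simulation therefore checks the calculation only and not the spread between cells or libraries. All 7 members were named, with, from each pathway list, up to 4 genes of the highest level in any class and those past 2-fold the same way in both pairs, and the 3 genes of most similar pattern for each member, without predicted and immunoglobulin genes. Other genes fall outside this rule and were picked with their values known. The members and lists were chosen with earlier results of these data known. Alternatives changed the filter on cells, doublets, clustering resolution, variable genes, depth, weight of cells and shared barcodes. Promoters came from RefSeq on GRCm38.p6, where all 7 of 7 members matched, in 12 windows.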

Additional observations from a re-analysis of the deposited data

Results flagged for a closer look

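Il1rn, the IL-1 receptor antagonist gene, had Tom+ over Tom- log2 ratios of opposite sign in the macrophage-like cluster 4, led by Atp6v0d2, Ms4a7 and Gpnmb. The ratio was 0.77 in the pair labelled CD45-, from 111 CPM in 364 cells and 65.2 CPM in 156 cells, and -0.46 in the pair labelled CD45+, from 75.3 CPM in 174 cells and 104 CPM in 205 cells. Each pair is 1 library against 1 library, and the difference between the pairs was not tested. With cells thinned to 2000 UMIs the ratios were 0.63 and -1.496, so the second moved past 2-fold. The share of cluster 4 cells with an Il1rn UMI was 50.3% and 49.4% in the Tom+ and Tom- libraries labelled CD45- and 43.1% and 44.9% in those labelled CD45+, with overlapping intervals within each pair.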

How the results depend on the processing

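No paired analysis was possible because each group was 1 library and the labels give no replicate numbers. The Il1b ratio in macrophage-like cells was below 0 under every alternative run. In the pair labelled CD45- (-1.41 as reported) it was -1.52 at Leiden resolution 0.5, -1.503 at resolution 2, -1.23 with cells thinned to 2000 UMIs, -1.26 with each cell weighing the same and -0.41 with 1 mix of clusters in both libraries. In the pair labelled CD45+ (-1.53) it was -1.96 at resolution 0.5, -1.79 with the filter set at 500 genes and 20% mitochondrial UMIs, -1.26 with thinned cells and -0.47 with 1 mix of clusters. The mix of clusters moved both under 2-fold, and with it the Il1rn ratio in the pair labelled CD45- turned to 0.10 and the Il1a ratio in the pair labelled CD45+ to 0.28. The Il1r1 ratios in APC-like cells stayed between -0.09 and -0.01 in the pair labelled CD45- and between -0.10 and -0.04 in the pair labelled CD45+. For these Il1b and Il1r1 ratios 31 recomputed values stayed within the counting interval of the reported one and 9 did not. For all other values 240 stayed, 61 moved further and 2, the Il1rn and Il1a ratios above, changed sign from an interval without 0. The Il1rn ratio in macrophage-like cells of the pair labelled CD45+ moved past 2-fold at resolution 0.5 (-1.14) and with thinned cells (-1.20), the Il1a ratio there at resolution 0.5 (-1.08), and with thinned cells also Il1rn in cluster 4 of that pair (-1.496) and Il1r2 in cluster 7 of the pair labelled CD45- (-1.18). Il1b in APC-like cells of the pair labelled CD45- kept its sign in 6 of 10 alternatives and went down to -2.05 with 500 genes and 20% mitochondrial UMIs, and the interval of the reported value includes 0. The mix of clusters and the removal of the weaker copy of a shared barcode were chosen after seeing the data. Ratios of clusters 0, 2, 4 and 7 were not recomputed under other clusterings, filters or doublet settings, which number clusters anew. Depth limits Il1a and, in the libraries labelled Tom+, neutrophil-like and monocyte-like cells, which were too few for a level.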
